A study of Rattus norvegicus with 24 samples.

Results

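The activators of the mammalian circadian clock and the loop of nuclear receptors that sets their level were followed in rat lung after cigarette smoke, Iraqi sand, silica or filtered air. The 7 genes were Bmal1, Clock, Npas2, Nr1d1, Nr1d2, Rora and Nfil3, taken by gene symbol from the annotation of the array, out of 14217 genes with a probe set of 1 symbol. Each gene was represented by the probe set that was chosen by its mean level, the brightest over 24 arrays. That mean level is therefore a description only, and the list of genes was drawn up with earlier results of these data known, so that it does not count as independent evidence for a change with smoke.

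Lung RNA of 24 male Sprague-Dawley rats, labelled as 17 weeks old, was measured on 1 Affymetrix Rat230_2 array per rat, in 6 groups of 4. Smoke rats breathed cigarette smoke nose-only at 0.48 mg WTPM per litre, for 3 h per day on 5 days per week, and then filtered air in whole-body chambers. Smoke-and-sand rats and smoke-and-silica rats breathed the same smoke, and in the last 2 weeks also Iraqi sand or silica dust at 1 mg per cubic metre, in chambers, for 18 h per day on 7 days per week. Sand rats and silica rats had filtered air in place of the smoke, and air rats had filtered air by both routes. The labels give 5 weeks of nose-only exposure per sample and 6 weeks in the text of the series. All groups shared the nose-only restraint and the chambers, and the tissue was the right caudal lobe kept in RNAlater. Each array is 1 animal of an outbred strain and 1 lobe that mixes many cell types. The hour of tissue collection is not given in the sources used here, so each level below is a level at an unstated time of day. Whether all groups were collected at the same hour is not given either. The part of the hour in differences between groups was therefore not tested.

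In the clock, the protein of Bmal1 pairs with that of Clock or of its paralogue Npas2, and the pair binds E-boxes (CACGTG) in its target genes. Among these targets are the Per and Cry genes, whose proteins block the pair, and Nr1d1 and Nr1d2, which encode the Rev-erb nuclear receptors. Rev-erbs repress, and the receptor encoded by Rora activates, genes with a ROR element, Bmal1 foremost among them. Nfil3 is also repressed by Rev-erbs in mouse, and its protein represses at D-boxes, the sites at which Dbp, Tef and Hlf activate. In mouse lung the clock of airway epithelium and of macrophages is known to set how strongly neutrophils enter after an inhaled stimulus.

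The promoters of the loop are shown because the ROR element, the site through which Rev-erbs and Rora act, and the E-box can be read in them directly. All 7 genes had an entry among the RefSeq promoters of assembly GRCr8, with 9 start sites in all, and the 250 bases before each start were searched on both strands. The 3 windows that held any searched site are printed 5′ to 3′ on the strand of the gene, with the matches in capitals, and are followed by the position of each.
Bmal1 (chr1:176766078-176766327, plus strand): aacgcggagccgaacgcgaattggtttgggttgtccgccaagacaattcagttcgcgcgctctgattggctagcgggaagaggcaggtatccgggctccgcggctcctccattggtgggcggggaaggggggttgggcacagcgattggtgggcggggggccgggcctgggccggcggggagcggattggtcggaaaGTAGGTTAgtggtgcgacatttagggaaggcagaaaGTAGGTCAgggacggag
Nr1d1, second start (chr10:84229455-84229704, minus strand): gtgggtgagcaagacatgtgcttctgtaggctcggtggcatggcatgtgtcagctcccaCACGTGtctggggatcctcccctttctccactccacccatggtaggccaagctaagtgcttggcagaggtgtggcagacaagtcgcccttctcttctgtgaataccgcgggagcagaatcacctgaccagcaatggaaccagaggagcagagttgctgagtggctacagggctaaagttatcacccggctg
Nr1d2 (chr15:9954784-9955033, plus strand): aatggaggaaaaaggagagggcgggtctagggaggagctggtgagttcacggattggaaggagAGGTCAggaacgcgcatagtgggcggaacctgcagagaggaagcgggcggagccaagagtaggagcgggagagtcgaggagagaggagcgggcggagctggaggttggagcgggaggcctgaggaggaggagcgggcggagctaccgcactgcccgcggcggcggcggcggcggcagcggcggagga
The Bmal1 window held 2 ROR elements, GTAGGTTA at 53 and GTAGGTCA at 17 bases before the start. The receptor core AGGTCA was read inside the nearer of them. The second start of Nr1d1 had an E-box at 191 bases before it, and the Nr1d2 window had the core AGGTCA at 187 bases before the start. No searched site lay in the windows of Clock, Npas2, Rora and Nfil3 or at the first start of Nr1d1, which says only that these letters are not in those windows. Of 33469 rat promoter windows of the same length, the ROR element GTAGGTNA occurred in 1.69%, the core AGGTCA in 14.1%, the E-box CACGTG in 5.59% and the D-box TTATGNAA in 3.28%.

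Values are on the log2 scale of RMA, and levels of different probe sets are not comparable with each other. A change is a difference between group means with its standard error (SE), from 1 limma fit over the 6 group means of all 24 arrays. It was called at a Benjamini-Hochberg adjusted p under 0.05 over all 14217 genes of that comparison. Nothing in the labels gives an extraction or array batch, and the rats are separate animals. Lung markers were bright on the arrays: the median level was 14.87 for Sftpc of alveolar type 2 cells, 14.91 for Scgb1a1 of club cells and 13.27 for Ager of alveolar type 1 cells. Rat 302 of the sand group stood apart, with a mean correlation of 0.944 to the other arrays, against 0.980 to 0.990 for the rest. Rat 302 and air rat 104 had high heart muscle markers (a mean level of 9.48 and 9.91 over 7 of 8 listed genes, against at most 7.80 in the groups without them). Smoke-and-silica rat 604 had high proliferation markers (8.53, against at most 7.61 in the other groups). Results for the 7 genes that rest on these rats are given with and without them, and marker levels are given with them only.

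Nr1d1, the gene of Rev-erb alpha, fell with smoke and had the lowest adjusted p of the 7 genes. Averaged over the 3 particle conditions, its level was 8.76 ± 0.48 in smoke-exposed rats and 9.89 ± 0.33 in rats without smoke (SD, n = 12 each), a change of -1.12 ± 0.12 (SE, limma adjusted p = 2.23e-05), or 2.18-fold lower. Npas2, a partner of Bmal1, fell by 0.92 ± 0.18 (adjusted p = 0.003143) and Bmal1 by 0.55 ± 0.16 (adjusted p = 0.04323). Rora, the activating receptor of the loop, rose by 0.46 ± 0.12 (adjusted p = 0.02956). That average lay in the sand pair alone: Rora changed with smoke by 0.01 in air, 1.52 in sand and -0.15 in silica. Clock at -0.05 ± 0.12, Nr1d2 at 0.10 ± 0.19 and Nfil3 at 0.09 ± 0.08 did not pass, with adjusted p of 0.839, 0.7785 and 0.5483. So 4 of 7 genes were called, 3 lower and 1 higher, where 6.39% of all genes tested were called, and the median change was -0.05 for the 7 genes and -0.02 for all genes.

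**Figure D1:**
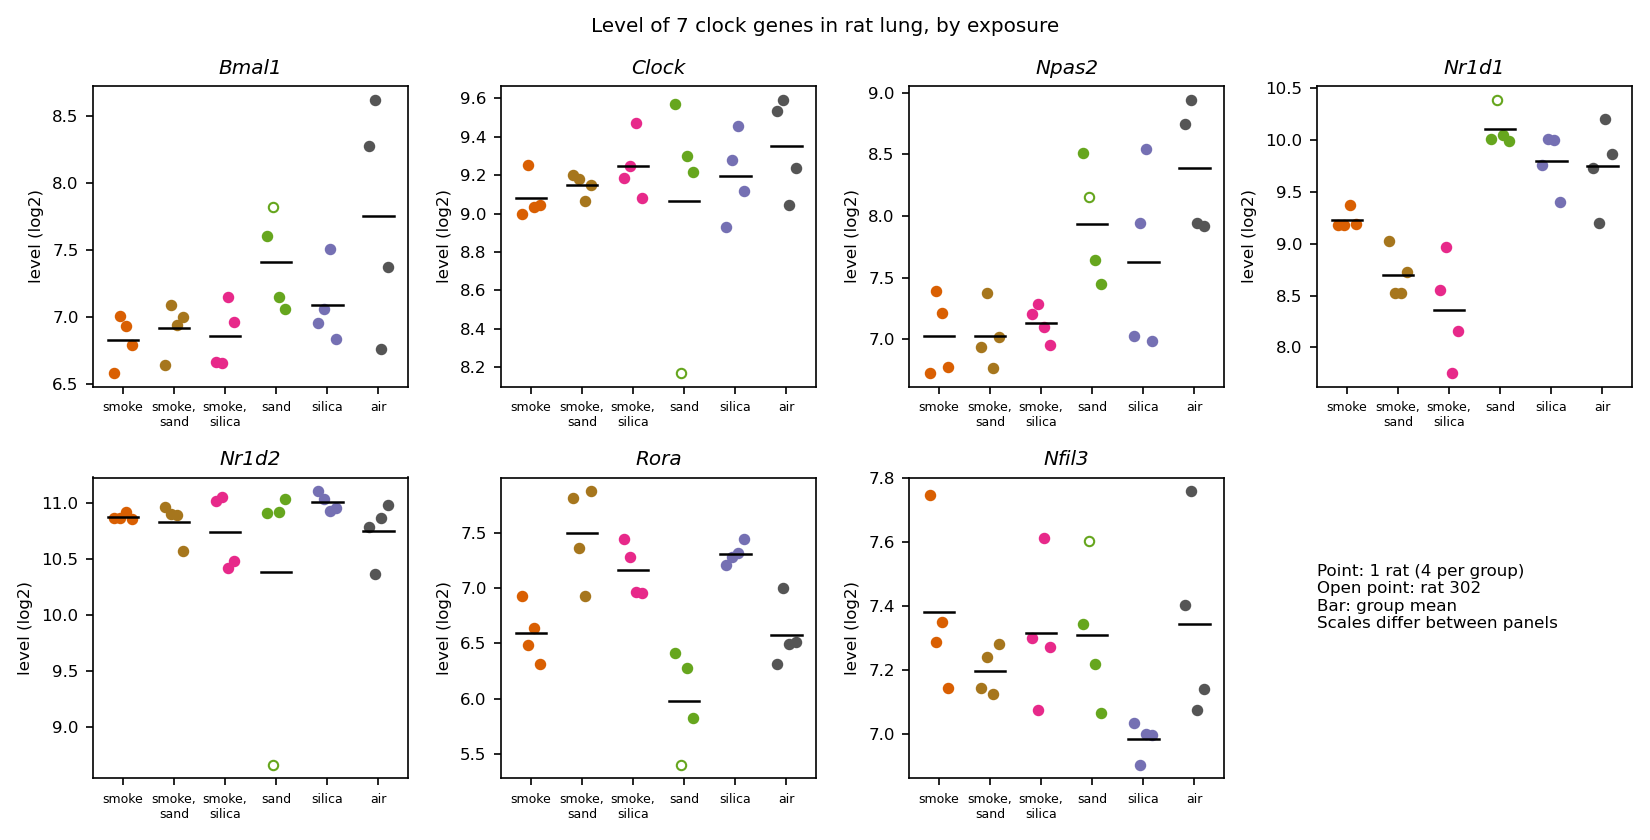
Level (log2, RMA) of the 7 genes in each rat, with the groups from smoke on the left to air on the right; points are rats, bars are group means, the open point is rat 302, and scales differ between panels. Nr1d1 lies between 7.75 and 9.38 in the 12 smoke-exposed rats, and Nr1d2 of rat 302 lies alone at 8.67.

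**Figure D2:**
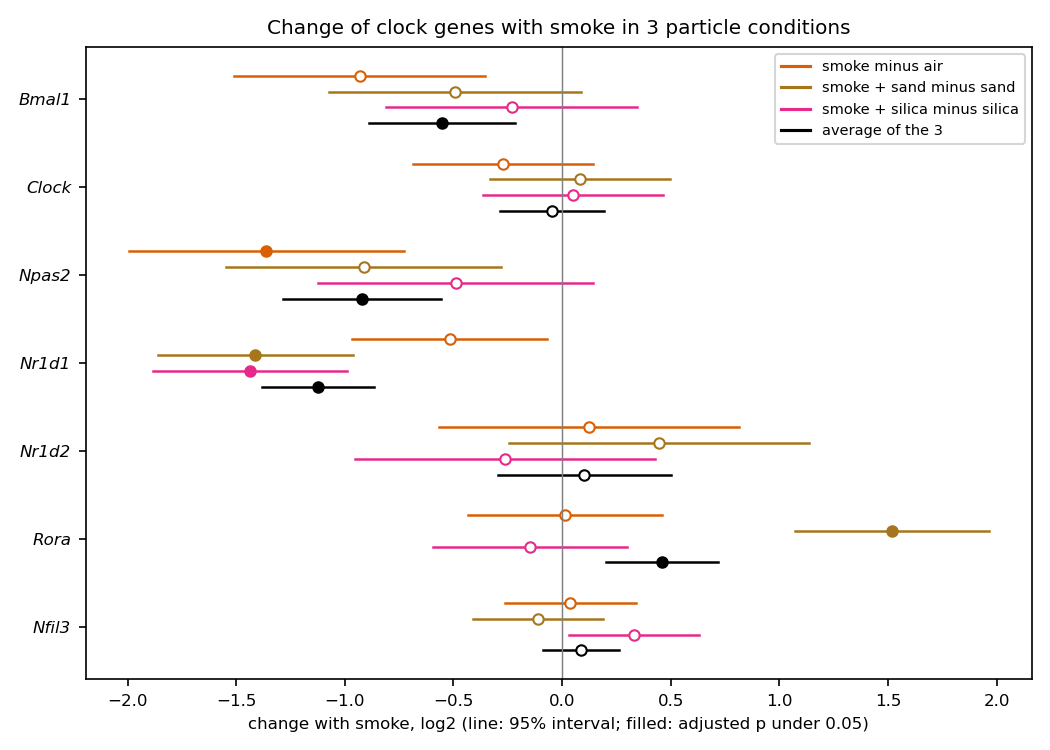
Change with smoke (log2, horizontal axis) of each gene in air, in sand, in silica and as the mean of the 3; points are differences of group means, lines are 95% intervals, and filled points passed at an adjusted p under 0.05. Bmal1 passes on average, Npas2 in air and on average, Nr1d1 in sand, in silica and on average, and Rora in sand and on average.

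Among the activators, Npas2 had the widest difference with smoke. Its level was 6.73, 7.39, 7.22 and 6.77 in smoke rats, against 8.75, 8.94, 7.95 and 7.92 in air rats. Every smoke rat was below every air rat, and the change was -1.36 ± 0.30 (limma adjusted p = 0.031), or 2.57-fold lower. It was the only 1 of the 7 genes called in smoke against air, a comparison in which 0.893% of all genes were called. Without rat 102, 103, 201, 204 or 205 the Npas2 adjusted p was 0.05584 to 0.1399, and in a fit of these 8 arrays alone it was 0.05196.

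With sand in both groups, Npas2 was 6.94, 7.38, 6.76 and 7.02 in smoke-and-sand rats and 8.51, 8.15, 7.65 and 7.45 in sand rats. These groups did not overlap either, but the change of -0.91 ± 0.30 did not pass (adjusted p = 0.1115). With silica in both, Npas2 was 7.21, 7.28, 7.10 and 6.95 in smoke-and-silica rats and 7.02, 7.95, 8.54 and 6.99 in silica rats, which overlapped (-0.49 ± 0.30, adjusted p = 0.7436). Differences between these 3 changes were tested as interactions. The change with smoke was 0.45 ± 0.43 higher in sand than in air (adjusted p = 0.7349) and 0.87 ± 0.43 higher in silica than in air (adjusted p = 0.9997). The 12 smoke-exposed rats lay between 6.73 and 7.39 (median 7.06, SD 0.24) and the 12 others between 6.99 and 8.94 (median 7.95, SD 0.64). Of the others, 10 were above the highest smoke-exposed rat.

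Bmal1, the partner that both Clock and Npas2 need, also had its 3 lowest group means with smoke and its highest in air. It was 6.58, 7.01, 6.93 and 6.79 in smoke rats, against 8.28, 8.63, 6.76 and 7.38 in air rats. The groups overlapped through air rat 104, the lowest of the 12 rats without smoke, which lay 1.33 below the mean of its 3 group mates. The change of -0.93 ± 0.28 was not called (adjusted p = 0.1496), and without rats 302, 104 and 604 it was -1.27 with an adjusted p of 0.005312.

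Bmal1 was 6.64, 7.09, 6.94 and 7.00 in smoke-and-sand rats and 7.61, 7.82, 7.15 and 7.06 in sand rats (-0.49 ± 0.28, adjusted p = 0.3084). It was 6.66, 6.66, 7.14 and 6.96 in smoke-and-silica rats and 6.95, 7.06, 7.51 and 6.84 in silica rats (-0.23 ± 0.28, adjusted p = 0.9086). In both pairs the rats overlapped. Over all particle conditions, smoke-exposed rats spanned 6.58 to 7.14 (median 6.93, SD 0.19) and the others 6.76 to 8.63 (median 7.26, SD 0.58). The averaged call was close to the threshold: leaving out any of 18 single rats, rat 302 among them, took the adjusted p to between 0.05159 and 0.07932, while without rats 302, 104 and 604 together it was 0.005031 at a change of -0.65.

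Clock, the third activator, passed in no comparison. Smoke-exposed rats lay between 8.995 and 9.47 (median 9.16) and the others between 8.17 and 9.59 (median 9.26), with the lowest value in rat 302. In smoke against air the change was -0.27 ± 0.20 (95% interval -0.69 to 0.14, adjusted p = 0.7593), and in smoke-and-sand against sand it was 0.08 ± 0.20. Without rat 302 the change in sand had the other sign, at -0.21 (adjusted p = 0.5024). When arrays were weighted by quality, Clock passed in smoke against air at -0.38 (adjusted p = 0.02509) and on average at -0.19 (adjusted p = 0.03605). The weights also called many more of all genes than the main fit in both comparisons, so these calls do not single out Clock. The other 3 Clock probe sets, which were dimmer, had average changes with smoke of -0.06, 0.12 and 0.04.

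For Bmal1 and Npas2 alike the 3 smoke groups had the lowest means, then came silica, then sand, and air was highest. For Bmal1 the means ran 6.83 ± 0.19, 6.92 ± 0.19 and 6.86 ± 0.24 in smoke, smoke-and-sand and smoke-and-silica rats, and 7.41 ± 0.36, 7.09 ± 0.29 and 7.76 ± 0.85 in sand, silica and air rats (SD, n = 4 each). For Npas2 they ran 7.03 ± 0.33, 7.03 ± 0.26 and 7.13 ± 0.14 in the smoke groups, and 7.94 ± 0.48, 7.62 ± 0.75 and 8.39 ± 0.53 in sand, silica and air rats. Ranges of neighbouring groups in this order overlapped throughout, so no neighbour pair differed beyond its spread for either gene.

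Nr1d1, the repressor of the loop, had a lower mean with smoke in each particle condition, and its lowest means where smoke and a dust were combined. It was 9.03, 8.53, 8.52 and 8.73 in smoke-and-sand rats, against 10.02, 10.39, 10.05 and 9.99 in sand rats. No value of one group reached the other, and the change was -1.41 ± 0.22 (adjusted p = 0.002931), or 2.66-fold lower. In this comparison 2 of the 7 genes were called, Nr1d1 lower and Rora higher, where 1.29% of all genes were called. Without rat 302 the Nr1d1 change was -1.32 (adjusted p = 0.01277), and in a fit of these 8 arrays alone the adjusted p was 0.06283. That fit called 0 of all genes.

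Nr1d1 was 8.55, 8.97, 7.75 and 8.16 in smoke-and-silica rats, against 9.77, 10.01, 10.00 and 9.40 in silica rats. These groups did not overlap either, and the change was -1.44 ± 0.22 (adjusted p = 0.01806), or 2.71-fold lower. It was the single gene of all 14217 that passed in smoke-and-silica against silica, or 0.00703% of the genes tested. The call was lost without rat 502, 503 or 604 (adjusted p of 0.1001 to 0.1506), with changes that stayed negative. It was also lost on the 19 arrays with an RNA integrity number (adjusted p = 0.1733, or 0.29 with that number as a covariate) and in a fit of the 8 arrays alone (0.1875).

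In smoke rats Nr1d1 was 9.18, 9.18, 9.38 and 9.19, against 9.73, 9.20, 10.20 and 9.87 in air rats. Only air rat 103 lay within the smoke values, but the change of -0.52 ± 0.22 did not pass (adjusted p = 0.3861). The interactions, the smoke change with a dust minus that in air, were -0.89 ± 0.30 for sand (adjusted p = 0.5047) and -0.92 ± 0.30 for silica (adjusted p = 0.9997), so a difference between particle conditions was not shown. Taking the 12 smoke-exposed rats together, 11 were below the lowest rat without smoke. Ordered by mean, Nr1d1 was 8.36 ± 0.52 in smoke-and-silica, 8.70 ± 0.24 in smoke-and-sand, 9.23 ± 0.10 in smoke, 9.75 ± 0.42 in air, 9.80 ± 0.29 in silica and 10.11 ± 0.19 in sand rats (SD, n = 4 each). Among neighbours, only smoke-and-sand and smoke rats did not overlap.

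Nr1d2, the gene of Rev-erb beta, passed in no comparison. It was 10.86, 10.86, 10.92 and 10.85 in smoke rats, against 10.78, 10.37, 10.86 and 10.98 in air rats (0.12 ± 0.33, 95% interval -0.56 to 0.81). In smoke-and-sand rats it was 10.96, 10.90, 10.89 and 10.57, against 10.91, 8.67, 10.92 and 11.03 in sand rats. The value of 8.67 belongs to rat 302, 2.28 below the mean of its group mates, and the change of 0.45 ± 0.33 became -0.13 without it. In smoke-and-silica rats it was 11.01, 11.05, 10.42 and 10.48, against 11.10, 11.03, 10.93 and 10.95 in silica rats (-0.26 ± 0.33, 95% interval -0.95 to 0.43). The dimmer pair of Nr1d2 probe sets also changed sign in the sand comparison with rat 302, to -0.20 and -0.15 without it.

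Rora had its highest means in smoke-and-sand, silica and smoke-and-silica rats and its lowest in sand rats. It was 7.82, 7.37, 6.93 and 7.88 in smoke-and-sand rats, against 6.41, 5.40, 6.28 and 5.82 in sand rats. The groups did not overlap, and the change was 1.52 ± 0.22 (adjusted p = 0.002543), or 2.86-fold higher. Without rat 302, the lowest sand rat, it was 1.33 (adjusted p = 0.005243). The call was lost with the RNA integrity number as a covariate (1.38, adjusted p = 0.06173) and in a fit of the 8 arrays alone (adjusted p = 0.2975). The fit of the 8 arrays called 0 of all genes.

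In the other particle conditions the change of Rora with smoke did not pass. It was 6.93, 6.49, 6.64 and 6.31 in smoke rats and 6.32, 7.00, 6.49 and 6.52 in air rats (0.01 ± 0.22, 95% interval -0.43 to 0.46). It was 7.45, 7.28, 6.97 and 6.96 in smoke-and-silica rats and 7.20, 7.28, 7.32 and 7.45 in silica rats (-0.15 ± 0.22, 95% interval -0.60 to 0.30). The averaged Rora call was lost on the 19 arrays with an RNA integrity number (0.37, adjusted p = 0.2396) and without rat 102, 201, 406, 602 or 603 (adjusted p of 0.05298 to 0.05688). The interaction, the smoke change in sand minus that in air, was 1.51 ± 0.30 and did not pass (limma adjusted p = 0.1284). It passed without smoke-and-sand rat 405 (1.70, adjusted p = 0.03898). In this interaction 0 of the 7 genes and 0.00703% of all genes were called, and 2 of the 7 and 8.84% of all genes had an unadjusted p under 0.05. In the interaction of smoke and silica 0 of 7 and 0% were called, with 1 of the 7 and 2.24% of all genes under 0.05 unadjusted.

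The Rora value rests on 1 of its 2 probe sets. The dimmer, at a mean level of 5.52 over the 24 arrays against 6.85 for the brighter, changed by 0.05 in smoke-and-sand against sand and by -0.05 on average with smoke. The brighter was itself dim, at the 27.2 percentile of gene levels over the 24 arrays. Its fold in sand is therefore taken against low values, 5.40 to 6.41 in the sand rats. Which transcripts each probe set reads was not tested. With the mean of both, the sand change was 0.79 (adjusted p = 0.001023). This mean joins a change of 1.52 in the brighter with 0.05 in the dimmer, so it does not show that both changed.

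Nfil3, the repressor at D-boxes, was not called in any comparison. Smoke-exposed rats lay between 7.08 and 7.75 (median 7.28) and the others between 6.90 and 7.76 (median 7.11). It was 7.30, 7.08, 7.61 and 7.27 in smoke-and-silica rats, against 7.03, 6.91, 7.00 and 7.00 in silica rats, which did not overlap (0.33 ± 0.14, adjusted p = 0.5487). The silica rats were the lowest group, at 6.98 ± 0.06, and no rat of the next group in the order of means reached them. With arrays weighted by quality, Nfil3 passed in silica averaged over smoke and no smoke (-0.30, adjusted p = 0.03885). The weights also called many more of all genes than the main fit in that comparison, so this call does not single out Nfil3.

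Dust alone called none of the 7 genes. In silica against air, 0 of 7 passed limma and 0.141% of all genes did, while 4 of the 7 and 5% of all genes had an unadjusted p under 0.05. These were Rora at 0.73 ± 0.22 (adjusted p = 0.4059), Npas2 at -0.76 ± 0.30 (adjusted p = 0.8759), Bmal1 at -0.67 ± 0.28 (adjusted p = 0.8983) and Nfil3 at -0.36 ± 0.14 (adjusted p = 0.8943). For Rora and Nfil3 the silica and air rats did not overlap, and for Bmal1 and Npas2 they did. In smoke-and-silica against smoke, 0 of 7 and 0.0141% were called, with 2 of the 7 and 8.29% of all genes under 0.05 unadjusted. These 2 were Nr1d1 at -0.87 ± 0.22 (adjusted p = 0.2002) and Rora at 0.57 ± 0.22 (adjusted p = 0.4906). Neither of these pairs of groups overlapped. Overlap was not counted over all genes in any comparison, so how often groups do not overlap among them is not known.

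Averaged over smoke and no smoke, Rora was 7.24 ± 0.19 in silica-exposed rats and 6.59 ± 0.26 in rats without dust (SD, n = 8 each), a change of 0.65 ± 0.15 with an adjusted p of 0.06281. With 0.345% of all genes called, 0 of the 7 were, and 3 of the 7 and 11.7% of all genes had an unadjusted p under 0.05. The Rora adjusted p was 0.01516 without rat 302, a sand rat whose array counts only towards the spread here.

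Sand called none of the 7 against air (0.0281% of all genes), within smoke (0.0141%) or on average (0%). With an unadjusted p under 0.05 there were 1, 2 and 0 of the 7, against 10.2%, 3.83% and 5.22% of all genes. Rora had opposite signs in the 2 settings, at -0.60 ± 0.22 in sand against air (adjusted p = 0.363) and 0.90 ± 0.22 in smoke-and-sand against smoke (adjusted p = 0.3256). Nr1d1 was 0.36 ± 0.22 in sand against air (adjusted p = 0.5493) and -0.53 ± 0.22 in smoke-and-sand against smoke (adjusted p = 0.9997). Without rat 302 the changes in sand against air were -0.41 for Rora and 0.27 for Nr1d1. Each of these contrasts is part of the interaction of smoke and sand given above.

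Against air, the combined exposures called Npas2 and Nr1d1 lower. In smoke-and-sand against air, 3 of 7 genes passed where 0.978% of all genes did: Npas2 at -1.36 ± 0.30 (adjusted p = 0.02958), Nr1d1 at -1.05 ± 0.22 (adjusted p = 0.01932) and Rora at 0.92 ± 0.22 (adjusted p = 0.04015). In smoke-and-silica against air, 2 of 7 passed where 3.77% of all genes did, Npas2 at -1.25 ± 0.30 (adjusted p = 0.02325) and Nr1d1 at -1.39 ± 0.22 (adjusted p = 0.0006542). Both share the 4 air rats with the comparison of smoke against air. In smoke-and-sand against air each of the 3 calls was lost without some single rats: Npas2 without 102, 103, 402, 405 or 406 (adjusted p up to 0.1278), Nr1d1 without 102, 104, 105, 404, 405 or 406 (up to 0.07237), and Rora without any of 10 rats (up to 0.1716). On the 19 arrays with an RNA integrity number none of the 3 passed, at adjusted p of 0.09045, 0.3086 and 0.519. In smoke-and-silica against air Npas2 was lost without 102, 103, 604 or 605 (up to 0.0907) and no single rat lost the call of Nr1d1. Bmal1 was not called in either, at -0.84 ± 0.28 in smoke-and-sand against air (adjusted p = 0.1933) and -0.90 ± 0.28 in smoke-and-silica against air (adjusted p = 0.076). Without air rat 104 it passed in both, at -1.17 (adjusted p = 0.02167) and -1.24 (adjusted p = 0.006192), and without rat 302 in smoke-and-silica against air (adjusted p = 0.0368). A test for any difference among the 6 groups, limma's moderated F, called 3 of 7 genes, Nr1d1 (adjusted p = 0.0002573), Rora (0.001505) and Npas2 (0.03253), where 2.67% of all genes were called.

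Markers of several cell types had other mean levels in the smoke groups than in the groups without smoke, and their part in the changes of the clock genes was not tested. In bulk tissue, fewer cells of a type and less RNA per cell cannot be told apart. The mean level of 6 measured of 8 listed macrophage markers ran from 12.25 to 12.75 in smoke, 11.96 to 12.48 in smoke-and-sand and 12.40 to 12.69 in smoke-and-silica rats. It ran from 11.53 to 12.02 in sand, 11.62 to 12.18 in silica and 11.18 to 11.44 in air rats. Neutrophil markers, 5 measured of 6, ran from 8.42 to 10.55, 8.24 to 8.94 and 8.35 to 8.88 in the smoke groups in the same order, and from 7.74 to 8.33, 7.77 to 8.08 and 8.02 to 8.51 in sand, silica and air rats. T and NK cell markers, 7 of 7, ran from 7.63 to 8.20, 7.61 to 8.0 and 6.98 to 8.40 in the smoke groups, and from 7.98 to 9.01, 8.11 to 8.36 and 8.34 to 8.68 in the others. Airway secretory markers, 5 of 5, ran from 7.57 to 11.06, 7.86 to 10.15 and 7.23 to 10.41 in the smoke groups, and from 7.01 to 9.75, 6.77 to 8.0 and 7.15 to 9.35 in the others. Ciliated cell markers, 4 of 5, ran from 8.91 to 10.35, 9.11 to 9.63 and 8.40 to 9.69 in the smoke groups, and from 8.77 to 9.46, 8.44 to 9.20 and 8.99 to 9.20 in the others. B cell markers, 2 of 4, ran from 7.82 to 8.22, 7.65 to 8.09 and 7.59 to 8.33 in the smoke groups, and from 8.31 to 9.74, 7.77 to 8.69 and 7.60 to 9.02 in the others. Alveolar type 1 markers, 4 of 5, had group means of 12.9 to 12.91 with smoke and 13.03 to 13.09 without. Proliferation markers, 5 of 5, had group means of 6.95 to 7.44 with smoke and 6.72 to 6.89 without. Rat 302 was the highest sand rat, and rat 104 the highest air rat, for T and NK cell, airway secretory, ciliated and B cell markers. The highest neutrophil level was that of smoke rat 201. The RMA scale has no 0, so no marker can be given as absent.

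Other genes of the clock were read from a list of 27, of which 21 were measured. This list, too, was chosen with earlier results of these data known. Averaged over particle conditions, smoke called 4 of the 21 higher and 1 lower, all 5 among the 7 measured period, cryptochrome and repressor genes. Of all 14217 genes, 382 were called higher and 526 lower in that comparison. Cry1, a repressor of the Bmal1 pair, was 9.32 to 9.57 in smoke-exposed rats and 8.26 to 9.21 in the others, with no overlap between the 12 rats of each (0.75 ± 0.09, adjusted p = 7.224e-05). Bhlhe41, a repressor that competes at E-boxes, likewise did not overlap, at 10.05 to 10.56 with smoke and 8.98 to 10.00 without (0.81 ± 0.09, adjusted p = 2.23e-05). Per2 rose by 0.85 ± 0.13 (adjusted p = 0.0003442) and Bhlhe40 by 0.43 ± 0.11 (adjusted p = 0.0255), while Per1 fell by 0.43 ± 0.11 (adjusted p = 0.02936). The Bhlhe40 average joined changes with smoke of 0.94 in air, 0.55 in sand and -0.19 in silica. Bhlhe40 was also called higher in silica against air (1.73 ± 0.20, limma adjusted p = 0.0002153) and in silica averaged (1.16 ± 0.14, limma adjusted p = 0.0001705).

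The output genes at D-boxes, which Nfil3 opposes, did not pass: Dbp was at -0.07 ± 0.19, Tef at 0.00 ± 0.10 and Hlf at 0.00 ± 0.11, with 95% intervals of -0.46 to 0.32, -0.21 to 0.22 and -0.23 to 0.23. Like Nr1d1, Dbp, Per1 and Per2 are E-box targets, and their changes with smoke had different signs. None of the 2 other receptors and activators, 2 corepressors of Rev-erb, 4 kinases and ubiquitin ligases and 3 coactivators passed in that comparison. Gsk3b, a kinase that phosphorylates Rev-erb alpha, passed in smoke-and-sand against sand (0.52 ± 0.11, adjusted p = 0.02485), silica averaged (0.40 ± 0.08, adjusted p = 0.0192) and smoke-and-silica against air (0.44 ± 0.11, adjusted p = 0.0272).

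**Figure D3:**
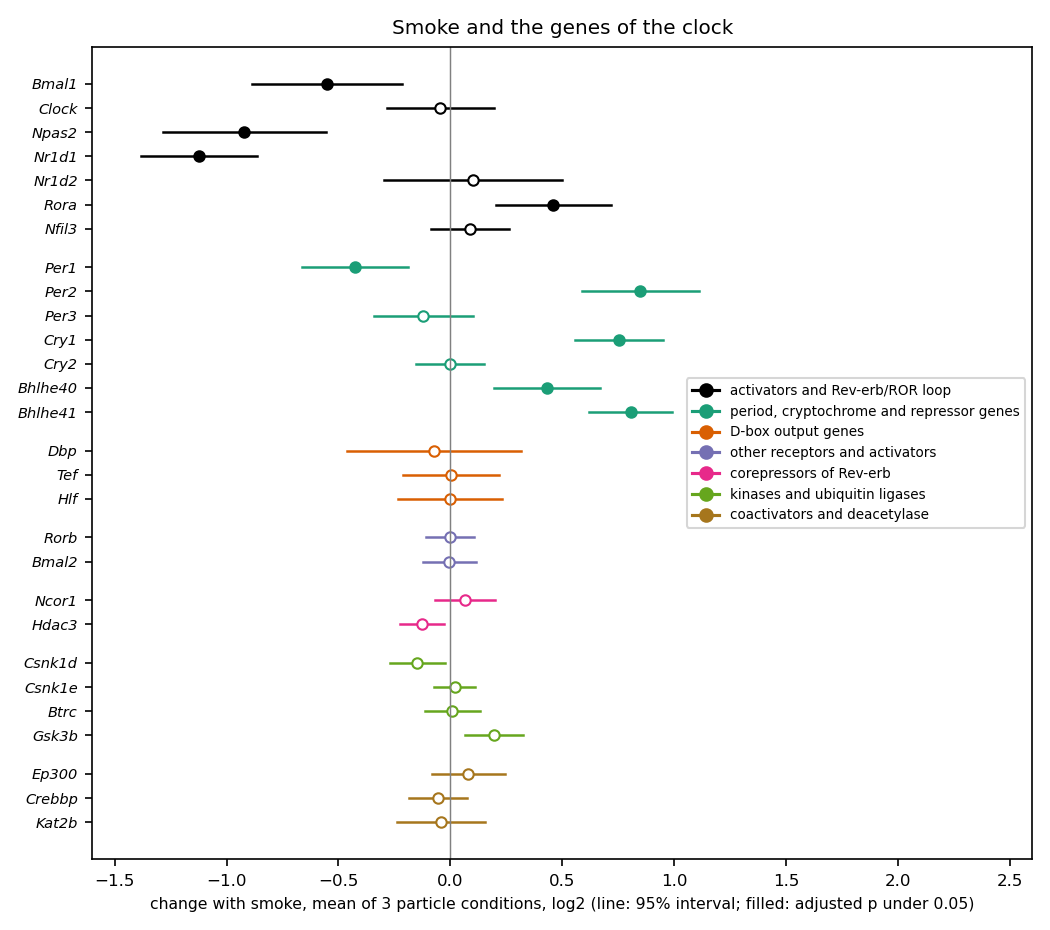
Change with smoke averaged over the 3 particle conditions (log2, horizontal axis) for the 7 genes and the 21 other measured clock genes; points are differences of means of 12 and 12 rats, lines are 95% intervals, and filled points passed at an adjusted p under 0.05. Nr1d1 at -1.12 and Npas2 at -0.92 are lowest, and Per2 at 0.85 is highest.

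Rats of 1 exposure group also differed from each other in these genes. Deviations from the group means were compared over 24 rats for all 21 pairs of the 7 genes, with 100000 permutations of rats within groups and Benjamini-Hochberg adjustment over the pairs. Bmal1 and Npas2 deviated together (Pearson r = 0.72, Spearman rho = 0.80, adjusted permutation p = 0.00714 and 0.00798). Bmal1 and Nr1d2 deviated in opposite directions (r = -0.47, rho = -0.60, adjusted permutation p = 0.00714 and 0.0201), as did Nr1d2 and Nfil3 (r = -0.58, rho = -0.59, adjusted permutation p = 0.00714 and 0.0201). Without the pair of rats farthest from the median of the first gene r was 0.73, -0.54 and -0.64. By rank, Nr1d2 with Nfil3 did not pass there (rho = -0.53, adjusted permutation p = 0.122). With the probe sets of each gene averaged, Bmal1 with Nr1d2 (adjusted permutation p = 0.0529) and Nr1d2 with Nfil3 (0.102) did not pass by rank, while Bmal1 with Npas2 did (0.00798).

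The other 18 pairs did not pass by Pearson's r, and several turned on rat 302. Without it 6 pairs passed: Bmal1 with Clock went up to r = 0.80 (adjusted permutation p = 0.00392), where it was 0.23 with the rat, and Clock with Npas2 to 0.83, where it was 0.38. Nr1d1 with Nfil3 was -0.65 (adjusted permutation p = 0.017), where it was -0.50 with the rat. By rank 5 pairs passed without rat 302, and Nr1d1 with Nfil3 did not (rho = -0.48, adjusted permutation p = 0.112). Nr1d1 and Nr1d2, the Rev-erb pair, had r = 0.06 with rat 302 and 0.73 without it (adjusted permutation p = 0.0589). Clock and Nr1d2 had 0.66 with rat 302 and -0.41 without it, so the positive value came from that rat. Without rats 302, 104 and 604 only Bmal1 with Npas2 and Clock with Npas2 passed.

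**Figure D4:**
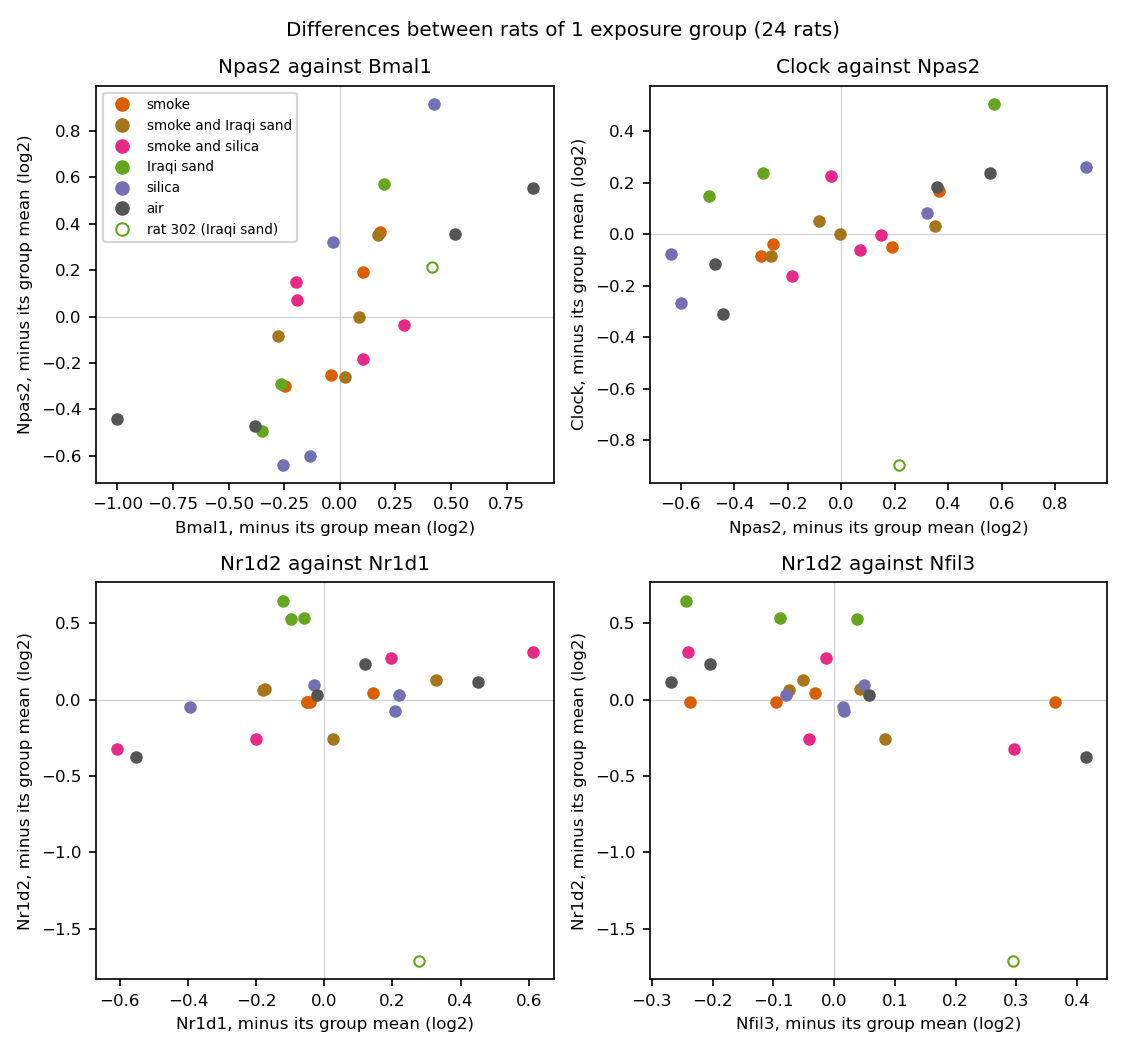
Deviation of each rat from its group mean (log2, both axes) for 4 pairs of genes; points are 24 rats coloured by exposure and the open point is rat 302. Npas2 follows Bmal1 with r = 0.72, and rat 302 lies far below the other rats for Clock and Nr1d2.

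Across all 24 arrays, exposure differences included, the genes whose levels were most like or unlike those of Bmal1 and Nr1d1 were listed as a description, among genes with a mean at or above the median gene. Of 7109 genes compared, Bmal1 had its highest r with Fibin (0.84), Unc13d (0.78), Spon2 (0.76), Prkcd (0.76) and Bbc3 (0.76). Its lowest were with Per2 (-0.88), Wee1 (-0.85), Bhlhe41 (-0.74), Slc6a6 (-0.73) and Rassf4 (-0.72). Per2 encodes a repressor of the Bmal1 pair, and Wee1 encodes a cell cycle kinase known as a clock target in mouse liver. Of 7108 genes compared with Nr1d1, the highest r were with Hes1 (0.86), Igfbp7 (0.85), Gpr146 (0.82), Man1c1 (0.81) and Rassf3 (0.81). The lowest were with Tpmt (-0.86), RGD1359108 (-0.75), Pdhx (-0.74), Enpp2 (-0.74) and Cd68 (-0.73), the last of these a macrophage marker. All points of these correlations share the exposures and the normalization.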

How the data were processed

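The data are the log2 values that the authors deposited for 31099 probe sets on 24 Affymetrix Rat230_2 arrays, made with RMA per the submitters' processing notes; the RMA version and any batch are not given in the sources used here. Per the labels, RNA came from the right caudal lobe by Trizol and an RNeasy kit. The number of arrays limits the precision; there is no read depth.

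Groups were taken from the treatment labels, and each rat is a replicate. After 57 control probe sets were left out, 20826 of 31042 had 1 gene symbol in the platform annotation, 436 had several and 9780 had none. Each of 14217 genes was represented by its brightest probe set over 24 arrays. One limma fit (version 3.58.1, R 4.3.3) with 6 group means gave all comparisons, two-sided, with Benjamini-Hochberg adjustment over all genes within a comparison. The script was tested on simulated data. The members, the lists of other clock genes and markers, and rats 302, 104 and 604 were chosen with earlier results of these data known. Named genes are all members, listed clock genes called in smoke averaged or in at least 2 single comparisons, and the 5 genes most and least like Bmal1 and Nr1d1. Alternatives covered probe set choice, scaling, dim genes, array weights, RNA integrity, variance shrinkage, samples in the fit and each rat left out in turn. Promoters are RefSeq windows of GRCr8.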

Additional observations from a re-analysis of the deposited data

Results flagged for a closer look

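A rat was set apart where its gap to the nearest of its 3 group mates, divided by the range of the group, passed Dixon's 95% critical value. This was done for 42 sets of 4 rats, the 7 genes in 6 groups, and gave 4 sets with a rat apart, from 2 rats; chance gives about 1 in 20 sets. In the sand group, rat 302 was far below its mates for Nr1d2, at 8.669 against 10.95 ± 0.07, and above them for Nr1d1, at 10.392 against 10.02 ± 0.03 (SD, n = 3). In the smoke group, rat 204 was above its mates for Nr1d1, at 9.377 against 9.18 ± 0.01, and for Nr1d2, at 10.916 against 10.86 ± 0.00. In the smoke group the mates lay very close together, so the gap of rat 204 is small on the log2 scale.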

How the results depend on the processing

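No result changed sign past the threshold under any alternative. Counted as pairs of 1 of the 13 gene calls and 1 alternative setting, the call stayed in 101 of 118 pairs. With each of 24 rats left out in turn, it stayed in 256 of 312 pairs of a call and a rat. Calls of genes that the filter for dim genes removes were not counted under that filter. Smoke in sand and smoke in silica stand here for smoke with a dust against that dust alone. With 4 rats per group, calls near the threshold turned on single rats; the cause was not tested. Among genes at or above the median level (a filter that removes Bmal1, Npas2, Rora and Nfil3), 0 of the 7 genes were called in smoke against air and 1 each in smoke in sand, smoke averaged, smoke and sand against air, smoke and silica against air, and the test for any difference. Array quality weights called 3 in smoke against air, 1 in silica against air, 3 in silica averaged and 4 in smoke and silica against air. In the first 3 of these comparisons the weights also called many more of all genes than the main fit did. The rise there was therefore not limited to the 7 genes. With the RNA integrity number as a covariate the counts were 2 in smoke against air, 1 in smoke in sand and 0 in smoke in silica. They were 0 in smoke and sand against air and 1 for any difference. Of all genes, that fit called 42 in smoke against air and 10 in smoke in sand, where the main fit called 127 and 184. Over the 19 arrays that have the number, without the covariate, 2 of the 7 were called in smoke against air. In smoke in silica and in smoke and sand against air 0 were called there. Without rats 302, 104 and 604, 2 were called in smoke against air and 1 in silica averaged, and 279 of all genes were called in smoke against air. With only the groups compared, 0 were called in smoke against air, smoke in sand and smoke in silica, and 1 in silica averaged. In silica averaged, averaging the probe sets of each gene and centring array medians each called 1. Leaving out 1 rat in turn gave 0 to 2 calls in smoke against air, 0 to 1 in smoke in silica, 2 to 4 in smoke averaged, 0 to 1 in silica averaged, 0 to 3 in smoke and sand against air, 1 to 3 in smoke and silica against air and 0 to 1 in the interaction of smoke and sand (1 without rat 405). The count of correlated pairs by Pearson's r was 6 without rat 302 and 3 with it, and by rank 5 and 3. No paired analysis was possible because the rat numbers of the groups do not overlap.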
